A study of Mus musculus with 10 samples.

Results

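The proteasome genes described here were the rows of a heart expression table whose symbol began with Psm, followed by a letter from a to g and a number, with a mean of at least 1 TPM (transcripts per 1000000 transcripts) over 10 libraries. Of 55858 genes in the table, 49 had such a symbol and 46 met the minimum. The member nearest the minimum was Psmb9, at a mean of 2.42 TPM, and the matching rows left out were Psme2b (0.878 TPM), Psma8 (0.497 TPM) and Psmb11 (0.00466 TPM). RNA was sequenced from hearts of mice at postnatal day 10, with 5 animals in each of 2 groups. All animals were MCM and Chmp4bF/F by label, the latter a pair of floxed alleles of the ESCRT-III gene Chmp4b. The cKO group received tamoxifen at 0.1 mg/g under the skin on 2 consecutive days from postnatal day 0, to remove Chmp4b, and the control group received corn oil. Tamoxifen, the activity it induces and the loss of Chmp4b therefore cannot be told apart, and the labels do not spell out MCM or say which part of the gene is removed. The labels number the animals but give no sex, litter or batch.

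The proteasome is the protease that degrades proteins tagged with ubiquitin. Its 20S core is a barrel of alpha and beta rings, with the catalytic sites on beta subunits inside, and the 19S cap recognises, deubiquitinates and unfolds substrates with a ring of ATPases and a set of non-ATPase subunits. Interferon-induced immunoproteasome subunits can replace the constitutive catalytic ones and favour peptides for display on MHC class I. In heart muscle, proteasomes clear damaged and misfolded proteins, and transcription factors of the Nfe2l family raise the subunit genes together when proteolysis falls short.

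Values were read on 2 scales. TPM as deposited is a share of a closed total, per gene length, so levels of different genes can be compared within a library. Mitochondrially encoded transcripts held between 35.5% and 41.5% of each cKO library and between 50.0% and 59.4% of each control library, and the median of 13282 tested genes stood 0.63 higher in cKO on the log2 scale. Scaled TPM divides each library by its median-of-ratios size factor, which moved that median to 0.01, so scaled values show a gene against the median gene. Differences are of log2(value + 1), which understates the change of genes at low levels, and the depth behind TPM is unknown. Chmp4b itself, measured over the whole gene and all heart cells, had 29.3 ± 1.37 scaled TPM in cKO and 60.5 ± 6.47 in the control group (SD, n = 5), a log2 difference of -1.01 (two-sided exact permutation p = 0.00794, the smallest for 5 against 5). As deposited it had 38.2 ± 1.42 and 47.4 ± 8.61 TPM (exact permutation p = 0.0476), and that p passed 0.05 without any 1 cKO library or without control replicate 6, 8 or 9. The 10 cardiomyocyte markers examined were abundant throughout, at a summed level of at least 25937 scaled TPM in every library. Their sum was nonetheless lower in cKO, at 29341 ± 2878 against 51192 ± 1170 scaled TPM (SD, n = 5), a ratio of 0.573 without overlap. As deposited it was 38074 ± 1590 against 39957 ± 3700 TPM, with overlap. The part of this shift in the Chmp4b difference was not tested.

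Genes of the assembled 26S proteasome were higher in cKO hearts, and relative to the median gene those for its activators and assembly factors were mostly not. All 46 members passed the filter on low values. As deposited, limma with Benjamini-Hochberg adjustment called 45 of 46 higher and 0 lower, where 76.5% of all tested genes were higher and 3.46% lower, with a median log2 difference of 1.31 for the members and a lowest of 0.26. On scaled TPM, 36 members were higher, 1 was lower and 9 were not called, where 20.8% of tested genes were higher and 20.8% lower, with a median of 0.58 for the members. As deposited, 45 members lay higher in cKO without overlap between groups, against 62.5% of tested genes (64.4% in either direction). On scaled TPM, 34 did so, against 15.8%, and 35 in either direction, against 31.3%. The summed members were 0.577% ± 0.0445 of the total in cKO libraries (0.515% to 0.616%) and 0.218% ± 0.0274 in control libraries (0.187% to 0.256%; SD, n = 5). These are whole hearts, in which fewer cells of a type and less RNA per cell cannot be told apart.

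**Figure D1:**
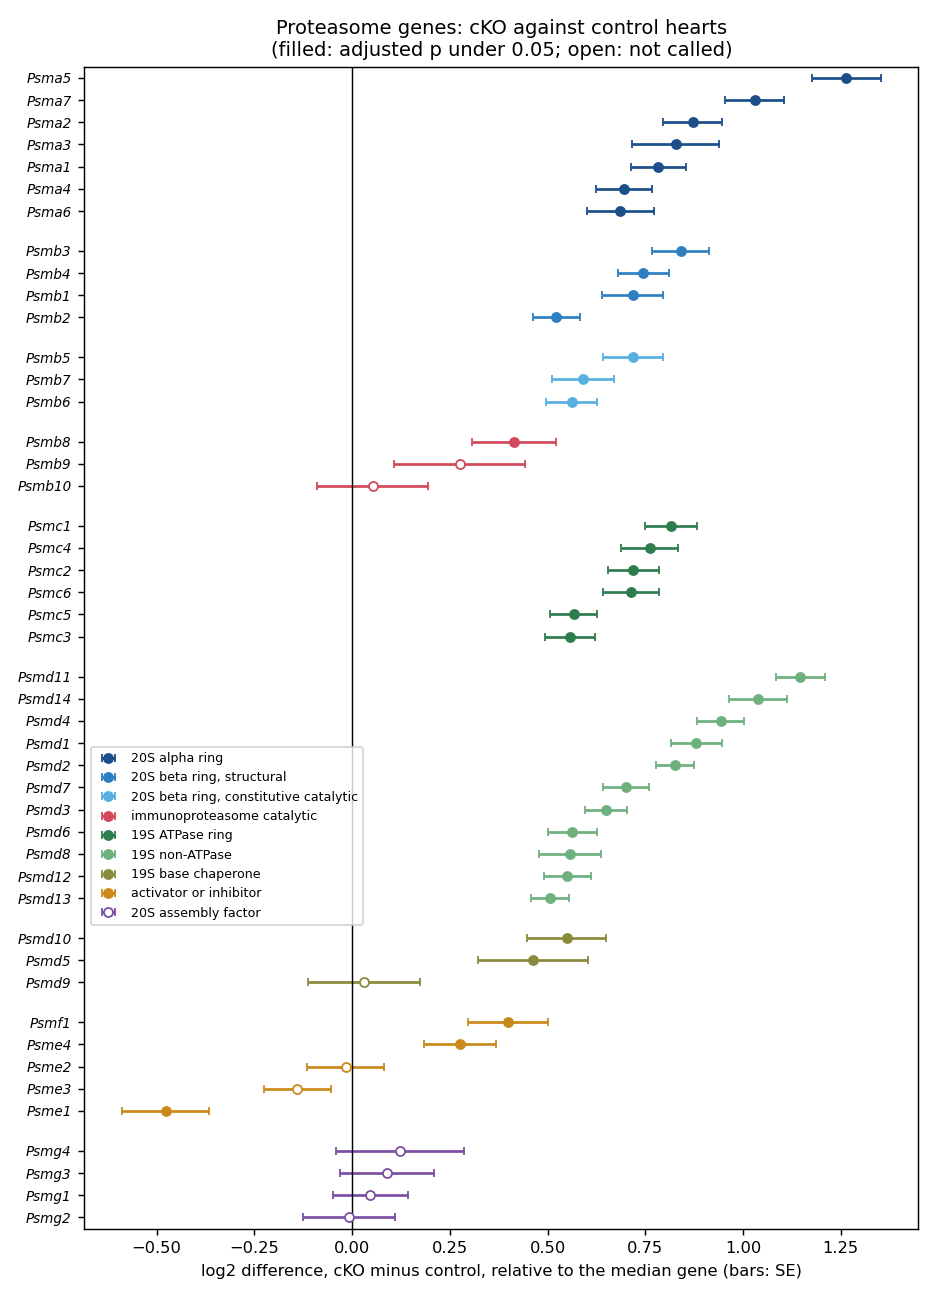
Log2 difference between cKO and control hearts for each of the 46 proteasome genes on scaled TPM (x axis, cKO minus control, bars are the SE of the limma fit), grouped and coloured by role. Filled points were called at an adjusted p under 0.05. All 31 core subunit genes lie at 0.51 or above, the 4 assembly factors lie between -0.01 and 0.12, and Psme1 lies at -0.48 (0.26 as deposited).

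On scaled TPM, calls differed between parts of the complex. All 31 members that encode core subunits, 14 of the 20S and 17 of the 19S, were called higher on both scales without overlap between groups. Of all tested genes, 20.8% were called higher on scaled TPM and 76.5% as deposited. Without overlap, 15.8% lay higher on scaled TPM and 62.5% as deposited. The scaled log2 differences of the 31 ran from 0.51 to 1.26, with a median of 0.72. Sem1, a subunit of the 19S lid whose symbol falls outside the Psm rule, was called higher as deposited (0.88) but not on scaled TPM (log2 difference 0.16, limma adjusted p = 0.476, with overlap). Of the 15 members outside this core, 5 were higher, 1 was lower and 9 were not called on scaled TPM, with a median of 0.09. On that scale 20.8% of all tested genes were higher and 20.8% lower. Summed scaled TPM of the core genes was 4122, 3848, 4257, 3924 and 4335 in cKO replicates 1, 3, 5, 6 and 7, and 2423, 2654, 2392, 2433 and 2342 in control replicates 4, 6, 8, 9 and 13. The lowest cKO library thus stood above the highest control library, and the cKO mean was 1.67 times the control mean (2.79 times as deposited). The proportion of cap to barrel transcripts overlapped between groups. Summed 19S core TPM was 79.7% ± 4.31 of summed 20S core TPM in the cKO group and 81.3% ± 2.80 in the controls (SD, n = 5). This is a ratio within each library that no scaling changes, and it was not among the ratios planned.

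**Figure D2:**
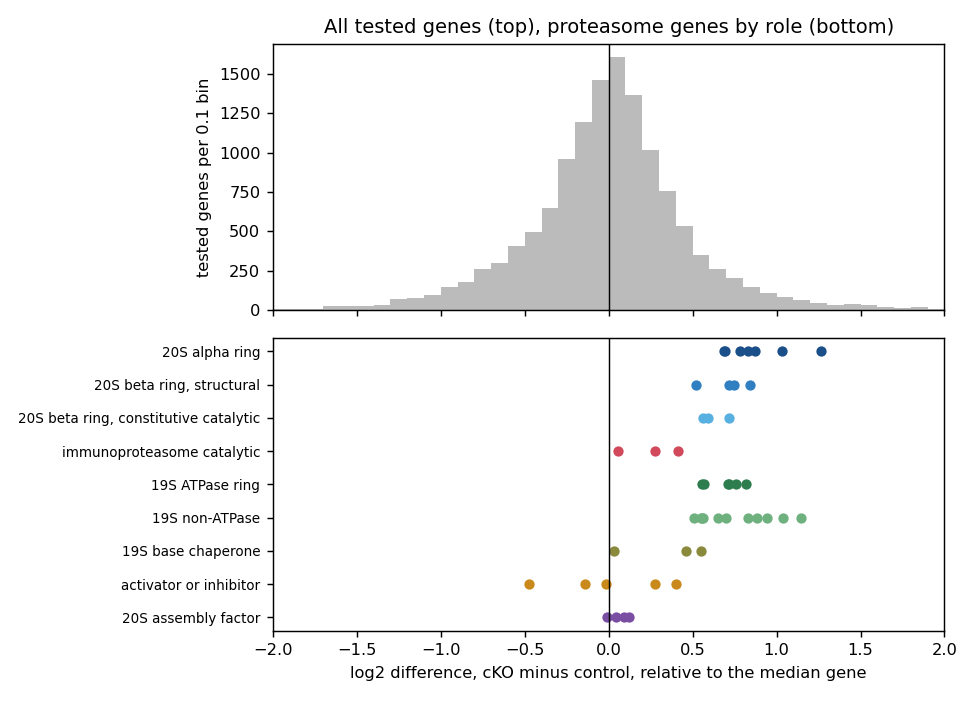
Top, number of tested genes per 0.1 bin of log2 difference (cKO minus control, scaled TPM, genes beyond 2 in either direction not drawn). Bottom, each proteasome gene on the same axis, by role. The core subunit rows all lie to the right of 0.5, where the upper panel thins out, while the assembly factor row lies under its peak.

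The 6 catalytic genes form pairs, in which an immunoproteasome subunit replaces a constitutive one. Psmb5, Psmb6 and Psmb7 encode the constitutive chymotrypsin-like, caspase-like and trypsin-like sites, and Psmb8, Psmb9 and Psmb10 encode their interferon-inducible counterparts in the same order. In GRCm38, with GENCODE M21 bounds, Psmb5 lies on chromosome 14 from 54614119 to 54618022, Psmb6 on chromosome 11 from 70525367 to 70527858 and Psmb7 on chromosome 2 from 38588036 to 38644087. Psmb8 (chromosome 17, 34197721 to 34201454) and Psmb9 (chromosome 17, 34181987 to 34187764) flank the peptide transporter gene Tap1 in the MHC region. Psmb10 lies on chromosome 8 from 105935735 to 105938444. RefSeq promoters were matched for 39 of the 46 members, with none for Psmb1, Psmb2, Psmb7, Psmc3, Psmd3, Psmd7 and Psmg2. Shown here, to set constitutive against inducible genes, are the 250 bases before the RefSeq start of Psmb5, Psmb6, Psmb8 and Psmb9, and of Psma5, the member with the largest difference, read 5′ to 3′ on the gene's strand with the motif matches named afterwards in capitals (RefSeq, GRCm38.p6):
Psmb5, chr14:54617996-54618245 (minus strand): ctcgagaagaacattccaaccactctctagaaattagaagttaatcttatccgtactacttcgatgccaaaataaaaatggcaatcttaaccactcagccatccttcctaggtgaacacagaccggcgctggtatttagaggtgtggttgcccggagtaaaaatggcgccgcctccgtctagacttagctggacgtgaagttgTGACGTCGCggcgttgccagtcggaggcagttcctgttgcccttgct
Psmb6, chr11:70525107-70525356 (plus strand): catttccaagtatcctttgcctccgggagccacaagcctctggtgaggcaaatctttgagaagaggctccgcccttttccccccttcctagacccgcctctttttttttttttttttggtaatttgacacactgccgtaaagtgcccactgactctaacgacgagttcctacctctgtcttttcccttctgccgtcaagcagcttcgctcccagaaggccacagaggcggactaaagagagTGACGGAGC
Psmb8, chr17:34197945-34198194 (plus strand): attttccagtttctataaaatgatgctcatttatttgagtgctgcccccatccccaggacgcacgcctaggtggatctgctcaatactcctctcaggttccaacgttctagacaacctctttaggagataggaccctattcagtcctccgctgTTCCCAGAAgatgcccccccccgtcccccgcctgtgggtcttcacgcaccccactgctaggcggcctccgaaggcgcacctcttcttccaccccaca
Psmb9, chr17:34187331-34187580 (minus strand): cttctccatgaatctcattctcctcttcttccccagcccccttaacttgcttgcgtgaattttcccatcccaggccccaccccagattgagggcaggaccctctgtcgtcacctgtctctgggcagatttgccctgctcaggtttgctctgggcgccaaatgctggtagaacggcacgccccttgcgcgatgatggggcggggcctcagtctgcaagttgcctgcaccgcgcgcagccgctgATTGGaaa
Psma5, chr3:108256676-108256925 (plus strand): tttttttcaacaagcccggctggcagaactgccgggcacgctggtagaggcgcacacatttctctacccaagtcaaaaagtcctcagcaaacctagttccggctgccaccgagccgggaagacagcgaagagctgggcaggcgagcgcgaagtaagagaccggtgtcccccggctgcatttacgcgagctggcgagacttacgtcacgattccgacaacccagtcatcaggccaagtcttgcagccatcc

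Capitals in the Psmb5 and Psmb6 promoters mark the antioxidant response element core, TGACNNNGC, found as TGACGTCGC from 47 to 39 bases before the start and as TGACGGAGC from 9 bases to 1 base before it. In Psmb8 they mark the gamma-activated site core, TTCNNNGAA, 97 to 89 bases before the start, and in Psmb9 a CCAAT box on the other strand (ATTGG), 8 to 4 bases before it. The Psma5 stretch held none of the 4 motifs searched. The promoter of Psmb10, the remaining inducible catalytic gene, is not printed and also held none of the 4. The windows of Psmb8 and Psmb9 lie inside the GENCODE bounds of those genes, which begin further upstream. Both strands of the 300 bases from 250 before to 50 after each start were searched. For a gene with several starts, a match at any of them counted. The antioxidant core was found in 6 of 39 members (15.4%), in 14% of 27025 genes with a promoter and in 17.1% of the 9852 tested genes among these. The members' share thus lay between these 2 backgrounds. The CCAAT letters were found in 33.3% of members, 41.1% of all genes with a promoter and 43.5% of the tested ones. TTCNNNGAA was found in 7.69%, 9.55% and 8.11%, in the same order. The interferon-stimulated response element core, GAAA followed after any 2 bases by GAAA, was found in 5 members (12.8%), namely Psmb3, Psmd4, Psmd9, Psme1 and Psmg4. It was found in 3.99% of all genes with a promoter and in 3.62% of the tested ones. A match describes letters and is not a site shown to be bound.

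The 3 constitutive catalytic genes rose on both scales. Psmb5 had 139.9, 134, 141, 148 and 166 scaled TPM in cKO replicates 1, 3, 5, 6 and 7 and 85.6, 95.8, 96.0, 85.8 and 78.4 in control replicates 4, 6, 8, 9 and 13. All cKO libraries stood above all control libraries, with a log2 difference of 0.72 ± 0.08 (SE, limma adjusted p = 2.02e-05). Psmb7, in the same order, had 179, 163, 183, 175 and 215 scaled TPM in cKO and 115, 136, 117, 121 and 116 in control hearts (0.59 ± 0.08, limma adjusted p = 0.000112). Psmb6 was the most abundant of the 3, at 255 ± 19.1 against 172 ± 7.34 scaled TPM (SD, n = 5; log2 difference 0.56 ± 0.06 SE, limma adjusted p = 3.29e-05). Neither gene overlapped between groups.

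The 3 immunoproteasome genes were expressed at lower levels, and 1 of them rose beyond the median gene. Psmb8 had 8.63, 11.0, 8.69, 9.53 and 9.82 scaled TPM in the cKO libraries and 8.27, 5.55, 7.55, 7.42 and 5.97 in the control libraries. The groups did not overlap, but the lowest cKO value stood close to the highest control value, and the log2 difference was 0.41 ± 0.11 (SE, limma adjusted p = 0.00907). Psmb9 had 2.20, 2.83, 2.22, 1.87 and 3.64 scaled TPM in cKO and 2.65, 1.66, 2.21, 2.07 and 1.12 in control hearts. These values overlapped and were not called (log2 difference 0.28 ± 0.17 SE, limma adjusted p = 0.215). Psmb10 had 22.9, 26.1, 23.5, 40.9 and 31.8 scaled TPM in cKO and 28.5, 26.4, 30.5, 27.8 and 23.8 in control hearts, also with overlap (0.05 ± 0.14 SE, limma adjusted p = 0.80). As deposited, all 3 were called higher, at log2 differences of 1.07, 0.78 and 0.77 for Psmb8, Psmb9 and Psmb10, beside 1.45, 1.30 and 1.33 for Psmb5, Psmb6 and Psmb7. On that scale 76.5% of all tested genes were called higher, with a median difference of 0.63 over all tested genes. The added 1 understates the change of Psmb9 at its low level. Ratios of group means as deposited, without it, were 2.29, 2.19 and 1.74, beside 2.74, 2.48 and 2.52 in the same order. Exons of Psmb9 overlap Tap1 and those of Psmb7 overlap Nek6 on the opposite strand, and the sources used here do not say whether counting used strand.

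**Figure D3:**
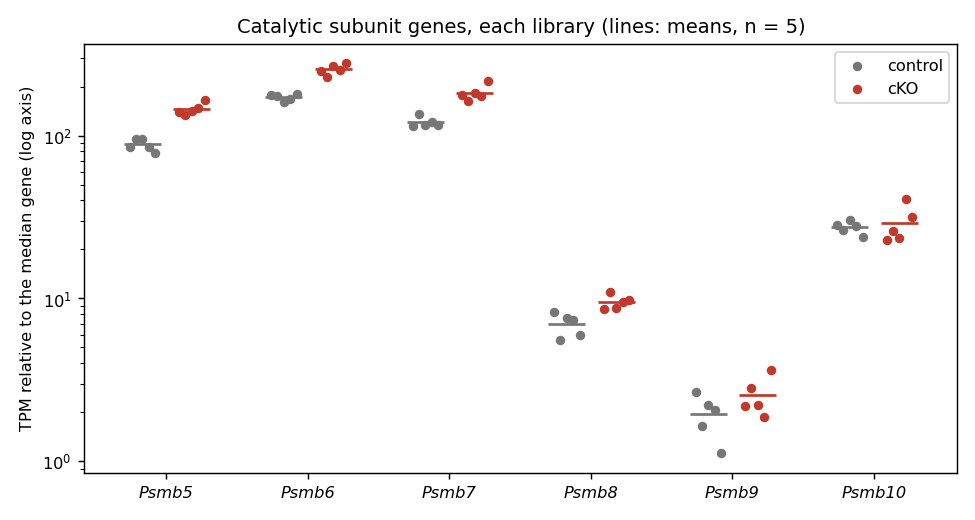
Scaled TPM (log axis) of the constitutive catalytic genes Psmb5, Psmb6 and Psmb7 and the immunoproteasome genes Psmb8, Psmb9 and Psmb10 in each control (grey) and cKO (red) library, with lines at the means (n = 5). The red and grey points are apart for the constitutive genes and for Psmb8, and mixed for Psmb9 and Psmb10.

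Ratios within a library put the pairs on a footing that the scaling does not touch. They were described and not tested. The summed immunoproteasome genes amounted to 5.95%, 7.60%, 5.81%, 9.08% and 6.87% of the summed constitutive genes in cKO replicates 1, 3, 5, 6 and 7, and to 10.4%, 8.24%, 10.8%, 9.96% and 8.28% in control replicates 4, 6, 8, 9 and 13. Of the cKO libraries, 4 stood below every control library, and replicate 6 lay within the control range. Psmb10 over Psmb7 was 16.0% ± 4.33 in cKO and 22.8% ± 2.81 in the control group (SD, n = 5), a log2 difference of -0.54, with overlap through the same cKO replicate 6 at 23.3%. The other pairs overlapped more widely, with Psmb8 over Psmb5 at 6.57% ± 0.926 and 7.92% ± 1.43 and Psmb9 over Psmb6 at 1.00% ± 0.257 and 1.13% ± 0.351 (SD, n = 5).

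The 7 alpha ring genes, whose products form the gate of the barrel and dock the caps, had the highest median difference of the 20S groups. Their scaled log2 differences ran from 0.69 to 1.26, with a median of 0.83, and 7 of 7 were called. Psma5 (chromosome 3, 108256926 to 108279974, plus strand, with the promoter printed above) had 124, 109, 128, 113 and 132 scaled TPM in the cKO libraries and 54.8, 58.1, 46.4, 45.2 and 45.9 in the control libraries. Every cKO value was far above the control values, with a log2 difference of 1.26 ± 0.09 (SE, limma adjusted p = 1.01e-06). As deposited the means were 158 ± 17.3 and 39.1 ± 6.29 TPM (SD, n = 5). Of 13282 tested genes, 266 had a larger scaled difference than Psma5. Psma7 followed at 217 ± 9.77 against 106 ± 11.5 scaled TPM (SD, n = 5, log2 difference 1.03), and Psma6 had the smallest difference of the ring at 189.8 ± 12.6 against 118 ± 15.1 (0.69). The 4 structural genes of the beta ring, which carry no active site, were all higher. They ranged from Psmb2, at 139.7 ± 6.37 against 97.0 ± 5.92 scaled TPM (0.52), to Psmb3, at 251.96 ± 21.8 against 140.1 ± 9.35 (0.84), with Psmb4 at 0.75.

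In the 19S cap, the 6 ATPase genes, whose ring unfolds and threads substrates into the barrel, were all higher. The scaled differences were close together, from 0.56 for Psmc3 (207 ± 9.30 against 141 ± 10.6 scaled TPM, SD, n = 5) to 0.76 for Psmc4 and 0.82 for Psmc1 (146 ± 9.37 against 82.3 ± 5.46). The 11 non-ATPase genes spread more widely, from 0.51 to 1.15, and 11 of 11 were called. Psmd11, whose product helps join cap and barrel, had 75.7, 67.8, 75.3, 63.3 and 66.5 scaled TPM in cKO and 31.3, 30.7, 30.4, 32.3 and 29.6 in control hearts. The control libraries were nearly level and every cKO library was above 60, a log2 difference of 1.15 ± 0.06 (SE, limma adjusted p = 2.2e-07). Psmd14, the deubiquitinase of the cap, had 87.4 ± 6.36 against 42.1 ± 3.70 scaled TPM (SD, n = 5, log2 difference 1.04). At the other end, Psmd13 had 65.3 ± 0.662 against 45.8 ± 1.93 scaled TPM (0.51), again without overlap. The ubiquitin receptor gene Psmd4 and the scaffold genes Psmd1 and Psmd2 lay between, at 0.94, 0.88 and 0.83. Exons of Psmc3, Psmd1 and Psmd13 overlap other protein-coding genes, as do those of Psma4, Psme1 and Psmg3. For Psmd1 (with Gm21972) and Psmg3 (with Gm26938) an overlapping gene lies on the same strand.

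Most genes for helpers that leave the finished complex were not called on scaled TPM. The 4 assembly factors Psmg1 to Psmg4, chaperones that build the alpha ring, were called in 0 of 4 cases on scaled TPM, with log2 differences of 0.05, -0.01, 0.09 and 0.12 (limma adjusted p from 0.585 to 0.966, and 0 of 4 at an unadjusted p under 0.05). As deposited they were called higher in 4 of 4 cases, at 0.75, 0.71, 0.75 and 0.82. The median of all tested genes was 0.63 on that scale, and 76.5% of them were called higher. Psmg2, for example, had 21.4, 22.6, 25.8, 26.7 and 28.6 scaled TPM in cKO and 24.0, 33.5, 21.4, 23.7 and 24.1 in control hearts, with the groups mixed. Their sum amounted to 3.07% ± 0.383 of the summed 20S core in cKO and 4.97% ± 0.369 in the control group (SD, n = 5), without overlap, a ratio chosen after the values were seen. Of the 3 chaperones of the 19S base, Psmd10 rose to 12.9 ± 0.754 from 8.58 ± 1.56 scaled TPM (SD, n = 5, log2 difference 0.55, limma adjusted p = 0.00105). Psmd5 was called with overlapping groups (0.46, limma adjusted p = 0.0209), and that call was lost without cKO replicate 5 or control replicate 4 and with Ddx3y, a Y-linked gene, as a covariate. Psmd9 had 8.26 ± 2.26 and 7.93 ± 0.963 scaled TPM (limma adjusted p = 0.89).

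Among activators and inhibitors, the direction differed between members. Psme1, which encodes the alpha subunit of PA28, an interferon-inducible activator that opens the barrel without ATP, was the 1 member called lower. It had 60.0, 59.4, 54.6, 71.3 and 76.8 scaled TPM in the cKO libraries and 86.8, 111, 90.2, 78.4 and 83.7 in the control libraries. The groups did not overlap, although cKO replicate 7 stood just under control replicate 9, and the log2 difference was -0.48 ± 0.11 (SE, limma adjusted p = 0.00485). As deposited the sign was opposite and not called, at 83.5 ± 8.80 against 70.6 ± 14.5 TPM (log2 difference 0.26, limma adjusted p = 0.0829), and it was called higher without control replicate 6 (0.36, limma adjusted p = 0.00722). Psme2, for the PA28 beta subunit beside Psme1 on chromosome 14, had 52.9 ± 5.01 and 53.8 ± 7.56 scaled TPM (-0.02, limma adjusted p = 0.91), and was higher as deposited (0.71). Its near copy Psme2b leaves the split of reads between them uncertain. Summed Psme1 and Psme2 amounted to 5.14% ± 0.376 of the summed 20S core in cKO and 10.6% ± 0.711 in the control group (SD, n = 5), without overlap, again a ratio chosen after the values were seen. Psmf1, the inhibitor PI31, rose (11.3 ± 1.49 against 8.35 ± 1.03 scaled TPM, 0.40, limma adjusted p = 0.00873), a call lost with the Ddx3y covariate. Psme4, the activator PA200, was called at 0.28 with overlap (limma adjusted p = 0.0301), and lost that call with the Ddx3y covariate and when any 1 of 5 libraries was left out (cKO replicates 1, 5 and 7 and control replicates 6 and 8). Psme3, PA28 gamma of the nucleus, was not called at -0.14.

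**Figure D4:**
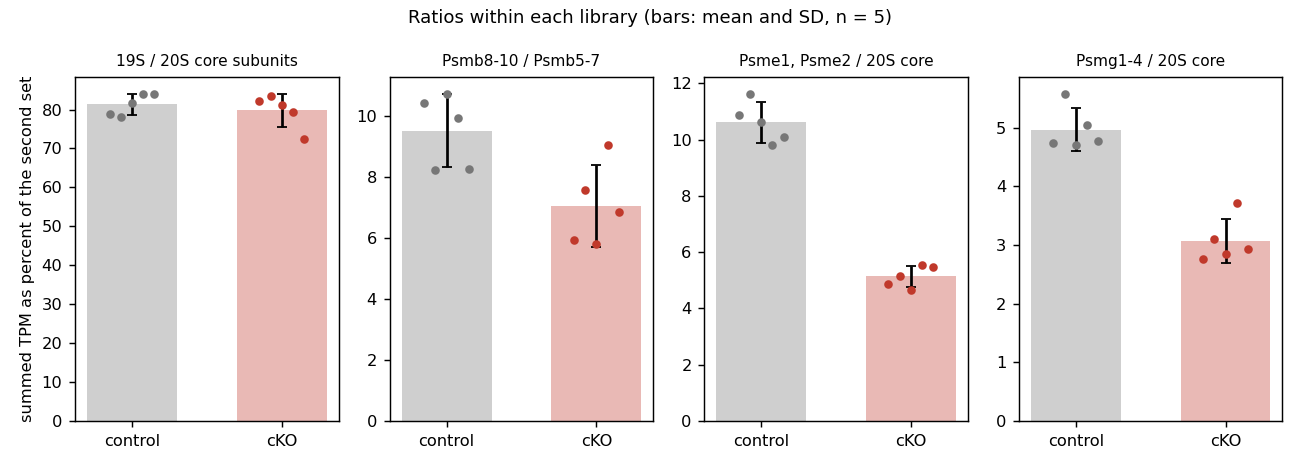
Summed TPM of 1 set as a percentage of another in each library (points), with bars at the mean and SD of 5 libraries per group, for 19S over 20S core genes, Psmb8 to Psmb10 over Psmb5 to Psmb7, Psme1 and Psme2 over the 20S core, and Psmg1 to Psmg4 over the 20S core. The first panel is level between groups, the second overlaps at cKO replicate 6, and the last 2 do not overlap.

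Proteasome genes without the Psm name were higher in part. Of 12 listed parts and partners, 11 were tested (Paaf1 was not matched by name), with 5 higher, 0 lower and 6 not called on scaled TPM. Of all tested genes, 20.8% were higher and 20.8% lower. Adrm1, the ubiquitin receptor of the cap that anchors the deubiquitinase Uchl5, had 80.0, 85.9, 84.6, 83.7 and 85.4 scaled TPM in cKO and 42.7, 41.5, 41.2, 39.0 and 39.6 in control hearts. Both groups were tight and far apart (log2 difference 1.02 ± 0.05 SE, limma adjusted p = 8.94e-08). Usp14, another deubiquitinase of the cap, rose by 0.74 (limma adjusted p = 5.4e-06), and Txnl1, a thioredoxin-like protein bound to the cap, by 0.51. Pomp, the factor that matures the 20S barrel, stood apart from Psmg1 to Psmg4, at 145 ± 32.3 against 81.8 ± 21.0 scaled TPM (SD, n = 5, 0.83, limma adjusted p = 0.00432), with overlap. Uchl5 was not called (0.07), nor was Sem1.

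The list of 9 genes for the transcription of proteasome genes held factors and other proteins. Of these 9, 8 were tested, with 3 higher, 1 lower and 4 not called on scaled TPM. Of all tested genes, 20.8% were higher and 20.8% lower. Among the 3 higher was Vcp (0.63), which is counted again among the shuttle and unfoldase genes below. Nfe2l1, the main activator of subunit genes when proteasomes are short, had 109, 111, 92.1, 97.3 and 79.7 scaled TPM in cKO and 117, 84.5, 115, 121 and 114 in control hearts. The groups overlapped through control replicate 6, and the difference of -0.17 was not called (limma adjusted p = 0.252), but was called lower without that library (-0.27, limma adjusted p = 0.0423). Nfe2l1 was higher as deposited (0.56), as was Nfe2l2 (0.50), the oxidative stress factor. On scaled TPM Nfe2l2 was lower (30.0 ± 2.91 against 34.9 ± 0.699, SD, n = 5, -0.22, limma adjusted p = 0.0221), a call lost without cKO replicate 3 or control replicate 8. Both factors are controlled largely at the protein level, which these data do not measure. Mafg, a small Maf partner of both, rose from 14.1 ± 2.03 to 37.8 ± 7.01 scaled TPM (1.35, limma adjusted p = 1.06e-05), and Ngly1, the glycanase that processes Nfe2l1, by 0.29 (limma adjusted p = 0.00636), a call lost with the Ddx3y covariate. The other small Maf genes listed, Maff and Mafk, were not called on scaled TPM (0.05 and -0.14).

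Upstream of the proteasome, ubiquitin genes and shuttles were higher in part. Of 4 genes reported for ubiquitin and its activating enzymes, 2 were higher, 0 lower and 2 not called on scaled TPM. Of all tested genes, 20.8% were higher and 20.8% lower. Ubb, a polyubiquitin gene that supplies ubiquitin under stress, had 677, 644, 666, 675 and 732 scaled TPM in cKO and 321, 354, 319.8, 326 and 301 in control hearts. The groups were far apart, with a log2 difference of 1.06 ± 0.06 (SE, limma adjusted p = 3.31e-07). Rps27a, which makes ubiquitin fused to a ribosomal protein, was called at 0.32 with overlap (limma adjusted p = 0.035). Copies of Rps27a elsewhere in the genome make its read assignment uncertain, and its call was lost in 10 of the alternatives run, among them leaving out cKO replicate 3, 6 or 7 or control replicate 4, 8, 9 or 13. The activating enzyme genes Uba1 and Uba6 were not called (0.0017 and 0.18). Of 10 shuttle and unfoldase genes, 7 were higher, 1 lower and 2 not called. Among them were Vcp, the unfoldase that extracts ubiquitinated proteins from complexes and membranes (266 ± 11.8 against 172 ± 6.57 scaled TPM, 0.63), its cofactor gene Nploc4 (0.78) and the shuttle genes Ubqln2 (0.74) and Rad23b (0.50).

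Downstream, genes that load proteasome products onto MHC class I were higher, beside immune cell markers. On scaled TPM 7 of 9 tested members of that list were higher and 0 lower, where 20.8% of all tested genes were higher and 20.8% lower. H2-K1 stood at 116 ± 18.9 against 38.9 ± 5.68 (1.54), the light chain gene B2m at 275 ± 44.8 against 117 ± 4.72 (1.21), Tapbp at 1.11 and H2-D1 at 0.65. Tap1, which shares its chromosomal neighbourhood with Psmb8 and Psmb9, had 4.07 ± 0.472 and 2.64 ± 0.806 scaled TPM (SD, n = 5, 0.50, limma adjusted p = 0.0153) with overlap, a call lost with the Ddx3y covariate. Of 7 interferon factors reported, 6 were higher and 1 lower, among them Irf8 (1.43), Irf7 (1.28) and Irf9 (0.39), which did not overlap between groups. Stat2 was called at 0.53 with overlap (limma adjusted p = 0.0183), and lost that call with the Ddx3y covariate. Of all tested genes, 15.8% stood higher in every cKO library than in any control library on scaled TPM. Of 12 macrophage markers, tested or not, 10 did so and 2, Cd163 and Cd14, overlapped, with a summed scaled level of 307 to 442 in cKO and 96.1 to 108 in control libraries. Of 7 markers of antigen-presenting cells, 4 stood apart in the same way and 3, H2-Eb1, Flt3 and Xcr1, overlapped (sums of 17.2 to 51.8 against 11.1 to 14.9). Lymphocyte markers were near the floor (3.96 to 6.35 against 2.46 to 3.58 over 10 genes), with Cd3e and Cd3d each listed at 0 in 3 of 5 control libraries and 1 of 5 cKO libraries. By limma calls on scaled TPM, fibroblast markers were higher in 7 of 8 and lower in 1 (1525 to 1850 against 1083 to 1389). Of these 8, 6 stood apart and 2, Col3a1 and Dpt, overlapped. Endothelial markers were called lower in 10 of 10 (758 to 1064 against 1347 to 1623), with overlap for Cldn5. Cardiomyocyte markers were called lower in 10 of 10 without overlap (25937 to 33211 against 49761 to 52790). As deposited, where 76.5% of all tested genes were called higher and 3.46% lower, 8 of 8 fibroblast markers were called higher. On the same scale 10 of 10 endothelial markers were not called. Cardiomyocyte markers as deposited were called lower in 3 of 10 and not called in 7. The part of these shifts in the proteasome differences was not tested.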

How the data were processed

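RNA of 10 mouse hearts, 5 cKO and 5 control, was extracted with a column kit and sequenced from 1 microgram per library, per the labels' protocols. The authors deposited 1 table of TPM, a unit that corrects reads for gene length and sums to 1000000 per library. The submitters' processing notes name STAR 2.7.1, HTSeq 0.11.2, DESeq2 1.22.2, Trimmomatic 0.32, Picard 1.96, FastQC 0.11.7, bcl2fastq and build mm10, without saying what each did. The sources used here give no annotation release, gene lengths, strand setting or read depth. Groups and replicate numbers came from the sample titles, and no pair of libraries was identical.

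Genes with at least 1 TPM in at least 5 of 10 libraries (13282) were tested as log2(TPM + 1) with limma 3.58.1 (R 4.3.3, moderated variance with trend, two-sided), as deposited and after division by median-of-ratios factors from 16393 genes. Calls needed an adjusted p below 0.05 (Benjamini-Hochberg over all tested genes). The fit was also run on values simulated gene by gene on the scaled TPM, which does not test the scaling itself. Chmp4b was tested by exact permutation. Tables and plots used Python 3.11.15, numpy 2.4.6, pandas 2.3.3 and matplotlib 3.10.9. Sums and ratios were described without a test. Alternatives were other pseudocounts, filters, variance models, library weights, a Ddx3y covariate, other scalings (upper quartile, and trimmed mean of M values) and leaving out each library.

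Members and gene lists were chosen with earlier results of these data known. Named with values were the 6 catalytic genes, in each role the 2 members with the largest absolute scaled difference and the 1 nearest 0, members called lower, those at the TPM minimum, up to 4 genes of each list by p, and Chmp4b, Nfe2l1, Nfe2l2, Pomp, Adrm1, Usp14, Tap1 and B2m. Some genes of the ubiquitin and interferon lists are not reported here. Other members appear in ranges or were named after their values were seen (Psmd1, Psmd2, Psmd4, Psme3, Psme4, Psmg1, Uchl5, Sem1, Maff, Mafk and the marker genes). Coordinates are GENCODE M21 on GRCm38, matched by gene ID, and promoters are RefSeq.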

Additional observations from a re-analysis of the deposited data

Results flagged for a closer look

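Among 118 groups of 5 values examined (each member as deposited, the ratios and the sums, in each group), 3 held a library whose gap to its nearest neighbour exceeded 0.71 of the group's range. Chance alone flags about 1 in 20 such groups. Psmc1, an ATPase of the cap, had 159 TPM as deposited in cKO replicate 6, below the other cKO libraries. The assembly factor gene Psmg2 had 28.3 TPM as deposited in control replicate 6, above the other control libraries. The log2 ratio of Psmb8 over Psmb5 was -3.61 in cKO replicate 3, above the other cKO libraries, and without it the pair's difference was -0.37 in place of -0.26.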

How the results depend on the processing

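Over all alternatives run, between 43 and 46 members were higher as deposited and between 33 and 36 relative to the median gene, with 1 lower on the latter scale in each. No paired analysis was possible because the groups share only replicate number 6 and the labels tie no animals together. Leaving out 1 library at a time gave 45 to 46 members higher as deposited and 34 to 36 relative to the median gene. It moved Chmp4b between -0.38 and -0.21 as deposited (exact permutation p from 0.00794 to 0.0952) and between -1.07 and -0.96 relative to the median gene. The ratio of the immunoproteasome to the constitutive trio (-0.44) ran from -0.54 to -0.38, Psmb10 over Psmb7 from -0.69 to -0.47, Psmb8 over Psmb5 from -0.37 to -0.18 and Psmb9 over Psmb6 from -0.35 to -0.03. Summed TPM was set on the other scale as an alternative chosen after seeing the data. The log2 difference of the core sum went from 1.48 as deposited to 0.74 relative to the median gene, of the 20S core to 0.76, of the 19S core from 1.47 to 0.73, of the constitutive trio from 1.35 to 0.61 and of the immunoproteasome trio from 0.91 to 0.17. That of the base chaperones went from 1.15 to 0.41, of the assembly factors from 0.80 to 0.054, and of Psme1 with Psme2 from 0.45 to -0.29, a change of sign. Without mitochondrially encoded genes, Psmd9, Psme3, Nfe2l1 and Nfe2l2 as deposited lost their calls. Psmd5 and Psme4 lost theirs relative to the median gene with no filter, where 28821 genes were tested. TPM keeps no read counts, so what depth limits for Psmb9 and other low genes is unknown.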
